A study of Mus musculus with 2 samples.

Results

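The genes described here encode subunits of the proteasome or, for some Psmd genes, chaperones of its assembly. They were chosen by symbol: Psma1 to Psma8, Psmb1 to Psmb11, Psmc1 to Psmc6 and Psmd1 to Psmd14. All 39 were found in both annotations used, among 21268 protein-coding genes with a start in the mouse build mm10 and 22219 in the older build mm9. They fall into 16 genes of the 20S core, 3 of the immunoproteasome and 20 of the 19S regulatory particle. Binding of the transcription factor USF1 near their starts was read from chromatin immunoprecipitation followed by sequencing (ChIP-seq) with a USF1 antibody. The study holds 1 group of 2 biological replicates of CH12.LX, an immortalized B-cell lymphoma line from the mouse strain B10.H-2aH-4bp/Wts. The labels name no treatment, the replicates are separate samples of the line from the same donor, and no control library was used here. The files are lists of regions with a signal value per region, so the sequencing depth behind a value is unknown and a region missing from a list cannot be told from one that was too shallow to be called.

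The proteasome is the protease that degrades ubiquitin-tagged proteins. Its barrel-shaped 20S core stacks rings of alpha subunits (Psma genes), which form the gate, on rings of beta subunits (Psmb genes), some of which cut peptides. The 19S particle caps the barrel: a ring of ATPases (Psmc genes) unfolds the substrate, and the Psmd products bind ubiquitin, remove it, hold the cap together or help to assemble it. In cells of the immune system the catalytic beta subunits can be replaced by Psmb8, Psmb9 and Psmb10, which alter the peptides offered on MHC class I. USF1 belongs to the helix-loop-helix leucine zipper family and binds E-boxes, above all the palindrome CACGTG.

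A gene was called bound when the summit of a region lay within 1 kb of any of its annotated starts. The call was made in 2 lists: the authors' optimal mm10 list of 8108 regions, selected with both replicates, and their mm9 list of 10624 peaks. USF1 summits lay at the starts of Psma4, Psma7, Psmb3, Psmb10 and Psmd9 in both lists, and at that of Psmd2 in the mm9 list. The 5 genes of the optimal list were 12.8% of the 39 (95% Wilson interval 5.60 to 26.7%), beside 12.6% of all genes. The 6 genes of the mm9 list were 15.4% (7.25 to 29.7%), beside 14.3% of all genes. With both lists joined, 6 of 39 were bound, beside 16.6% of the 18208 genes named alike in both annotations. In each case the share of proteasome genes was near that of all genes.

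Of the 6 bound genes, 5 carried CACGTG near the mm9 summit. The DNA around each of those sites is shown because it is the element that USF1 recognises. Each line gives 60 bases of mm9 in the direction of the gene, 5′ to 3′, with CACGTG in capitals. The Psmd9 window is chr5:123678121-123678180 on the plus strand, and that of Psmb3 is chr11:97564455-97564514 on the plus strand. The Psma4 window is chr9:54798499-54798558 on the plus strand, that of Psma7 is chr2:179776349-179776408 on the minus strand, and that of Psmb10 is chr8:108462376-108462435 on the minus strand.
Psmd9: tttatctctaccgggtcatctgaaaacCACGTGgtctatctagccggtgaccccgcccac
Psmb3: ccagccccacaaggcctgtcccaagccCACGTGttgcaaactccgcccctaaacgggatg
Psma4: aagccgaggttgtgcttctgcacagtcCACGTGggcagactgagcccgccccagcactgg
Psma7: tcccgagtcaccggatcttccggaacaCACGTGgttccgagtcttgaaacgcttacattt
Psmb10: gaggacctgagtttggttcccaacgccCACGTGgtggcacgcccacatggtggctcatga

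In these windows the bases that flank the hexamer make the 8-base word CCACGTGG at Psmd9, Psma4 and Psmb10, and ACACGTGG, read on one strand or the other, at Psma7 and Psmb3. The centre of the E-box lay -10.5 bp from the summit at Psmd9, -14.5 bp at Psmb3, 14.5 bp at Psma4, 7.5 bp at Psma7 and 9.5 bp at Psmb10, where negative means towards the upstream side of the gene. Each held 1 copy in the 101 bp centred on the summit. At Psmd2 neither CACGTG nor CACATG, a related E-box form, was present in that window. Summits were thus classed by CACGTG within 50 bp, by CACATG where CACGTG was missing, or by neither, and the bound proteasome genes gave 5, 0 and 1 summits in these classes. The share with CACGTG was 83.3% (95% Wilson interval 43.6 to 97.0%, n = 6 summits), and among all 3082 mm9 summits within 1 kb of a start it was 56.7%. With 6 summits the interval includes the value of all summits. CACATG was the class of 12.4% of all such summits and neither of 30.9%, with median mm9 signals of 76.4 and 48.1, beside 215.9 for CACGTG.

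**Figure D1:**
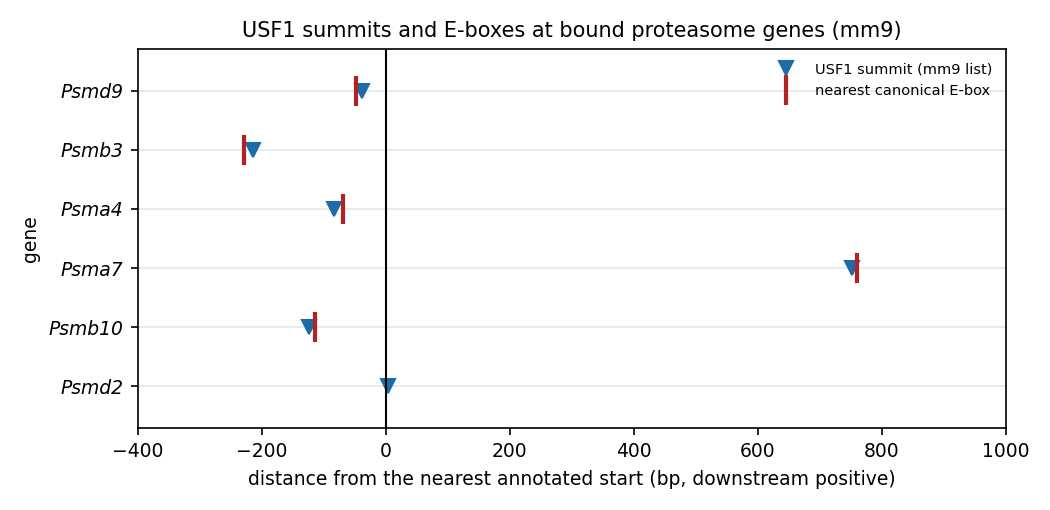
Position of the USF1 summit (triangle, mm9 list) and of the nearest canonical E-box (vertical bar) relative to the nearest annotated start of each bound proteasome gene, in bp, with downstream positive. Summits of 5 genes lie between -214 and 3 bp and that of Psma7 at 752 bp, each with an E-box at most 14.5 bp away except at Psmd2, which has none in the 101-bp window.

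Of the 8 alpha subunit genes, Psma4 and Psma7 were bound in both lists (25%, 95% Wilson interval 7.15 to 59.1%). The interval includes the shares of all genes, 12.6% in the optimal list and 14.3% in the mm9 list. Psma4 encodes a structural alpha-ring subunit. Its optimal region was mm10 chr9:54950642-54950789, with the summit at -63 bp from a start and a signal of 204.1, the authors' value for the region, whose scale is not given in the sources used here. Replicate 1 gave Psma4 a signal of 92.8 and replicate 2 gave it 109.5, a mean of 101.2 ± 11.8 (SD, n = 2). In the mm9 list the Psma4 peak had a signal of 370.6 at -83 bp. In mm9 this summit lies in the coding sequence of AY074887, a gene on the opposite strand whose start is 95 bp away in mm10. The mm10 summit is nearer to the start of Psma4 (63 bp) than to that of AY074887 (236 bp).

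Psma7, also an alpha-ring subunit, was bound inside its own gene. The optimal region at mm10 chr2:180041531-180041830 had its summit at 783 bp, in an intron, and was the farthest from a start of any bound member. Its signal was 71.6 in the optimal list and 95.5 at 752 bp in the mm9 list. The replicates gave 25.4 and 45.1, a mean of 35.2 ± 13.9 (SD, n = 2), the widest spread on the log scale of the bound genes at 0.83 (log2 of replicate 2 over replicate 1). The start of Ss18l1 lies 19 bp from that of Psma7 on the opposite strand, so this summit is 802 bp from it, and the region cannot be assigned to one of them by distance.

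The other 6 alpha subunit genes, Psma1, Psma2, Psma3, Psma5, Psma6 and Psma8, had no optimal or mm9 summit within 1 kb. By distance to any annotated start, the nearest miss among all 34 genes not bound in the optimal list was Psma6. Its nearest summit, of signal 133.3, lay 5898 bp from the nearer of its 2 annotated starts. Psma8, a subunit found in the germ cells of the testis, had no region within 1 kb in any list, and its nearest optimal summit lay 76914 bp away.

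Of the 8 beta subunit genes of the constitutive core and thymus, Psmb3 alone was bound, in both lists (12.5%, 95% Wilson interval 2.24 to 47.1%). That share was near those of all genes, 12.6% in the optimal list and 14.3% in the mm9 list. Psmb3, a beta-ring subunit without catalytic activity, had the highest optimal signal of the proteasome genes, 387.3, in the region mm10 chr11:97703071-97703281 with its summit at -258 bp. Replicate 1 gave 186.9 and replicate 2 gave 200.5, a mean of 193.7 ± 9.64 (SD, n = 2). Its mm9 signal was 682.7 at -214 bp. The start of Pcgf2 lies within 1 kb of the same mm10 summit, at 742 bp. The 3 genes of the constitutive catalytic subunits, Psmb5, Psmb6 and Psmb7, were not bound in either list. Psmb6 had relaxed signals of 9.54 in replicate 1 and 17.8 in replicate 2, the latter the highest of the unbound core genes in that replicate, whereas Psmb5 and Psmb7 had no region in either replicate.

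Of the immunoproteasome genes, 1 of 3 was bound in both lists (33.3%, 95% Wilson interval 6.15 to 79.2%). The interval includes the shares of all genes, 12.6% in the optimal list and 14.3% in the mm9 list. The bound gene was Psmb10, which replaces Psmb7. It had an optimal region at mm10 chr8:105938337-105938636, a summit at -95 bp and the lowest signal of the bound genes, 47.4. Replicate 1 gave 26.6 and replicate 2 gave 22.0, a mean of 24.3 ± 3.22 (SD, n = 2), and it was the one bound member with the lower value in replicate 2. Its mm9 signal was 63.4 at -123 bp. Psmb8 and Psmb9 both lie in the MHC. Their nearest optimal summit was the same one, of signal 135.8, at 18037 bp from Psmb8 and 7172 bp from Psmb9. In the mm9 list a peak of signal 186.9 lay 3565 bp from Psmb9, so a limit of 5 kb would add that gene in mm9. Psmb9 has 4 annotated starts in mm9 and 1 in mm10, so the distances in the builds may be from different starts.

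None of the 6 ATPase genes of the 19S particle, Psmc1 to Psmc6, was bound in either list. Their share of 0% (95% Wilson interval 0 to 39.03%) stood beside 12.6% and 14.3% of all genes in the optimal and mm9 lists. Their nearest optimal summits ranged from 16397 bp for Psmc3 to 112227 bp for Psmc4. All 6 did have a region within 1 kb in the relaxed list of replicate 2, beside 36.7% of all genes. In replicate 1, 3 of them, Psmc1, Psmc3 and Psmc5, had one, beside 25.7%. Among genes with a promoter CpG ratio between 0.643 and 0.826, the quartiles of the proteasome genes, the shares were 57.1% in replicate 2 and 41.0% in replicate 1. Psmc1 (0.938) and Psmc2 (0.841) lie above that range, so these shares are not for genes of like CpG content to all 6. The highest of these was at Psmc1, with 13.3 in replicate 1 and 14.6 in replicate 2, and its summits lay at -598 and -7 bp, so they were not at one place.

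Of the 14 Psmd genes, Psmd9 was bound in both lists and Psmd2 in the mm9 list. Psmd9, which encodes a chaperone of ATPase ring assembly that leaves before the particle is complete, had an optimal signal of 351.6 with its summit at -38 bp, in the region mm10 chr5:123228048-123228242. Replicate 1 gave 145.9 and replicate 2 gave 205.3, a mean of 175.6 ± 42.1 (SD, n = 2). In the mm9 list it had the highest signal of the proteasome genes, 724.0, again at -38 bp. Psmd2, a large scaffold subunit at the base of the 19S particle, had an mm9 signal of 37.2 at 3 bp, in its own untranslated region, which ranked 8427 of 10624 peaks. In mm10 it stayed outside the optimal list, with relaxed signals of 10.7 in replicate 1 and 17.5 in replicate 2 and 29.1 in the list of both together. The whole 19S class therefore had 1 bound gene of 20 in the optimal list (5.0%, 95% Wilson interval 0.888 to 23.6%) and 2 in the mm9 list (10%, 2.79 to 30.1%), and the core had 3 of 16 in each (18.8%, 6.59 to 43.0%). These intervals overlap and include the shares of all genes, 12.6% in the optimal list and 14.3% in the mm9 list. The difference between the classes was not tested. The bound 19S gene of the optimal list, Psmd9, is counted in the class by its symbol, although its product is not part of the finished particle.

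**Figure D2:**
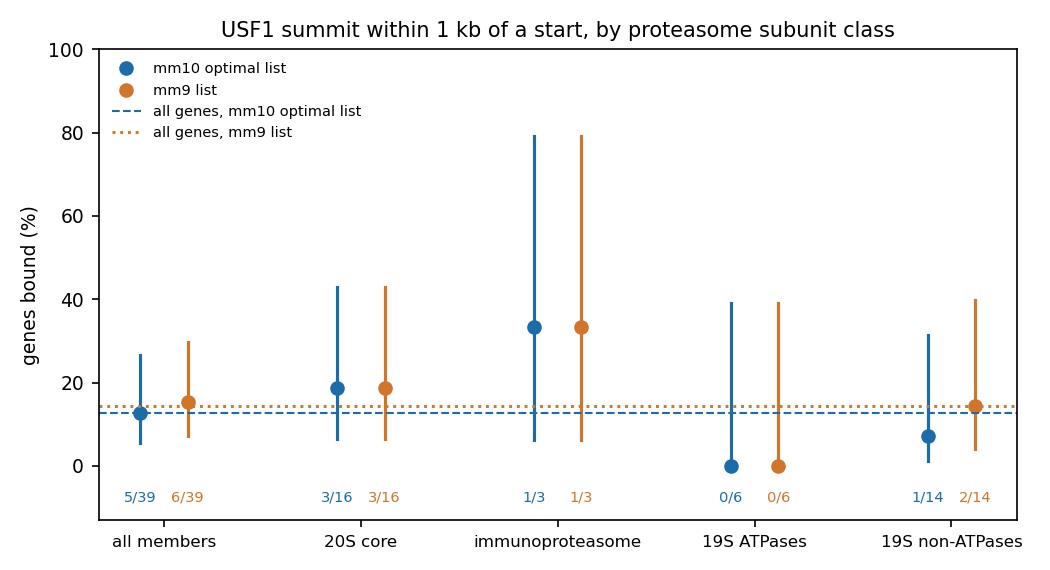
Share of genes with a USF1 summit within 1 kb of a start (vertical axis, %) in each class of proteasome subunits, with 95% Wilson intervals as bars and the number bound of all below. The intervals of all classes include the shares of all genes, 12.6% in the mm10 optimal list (dashed line) and 14.3% in the mm9 list (dotted line).

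The 5 genes bound in mm10 spread over much of the range of signal that bound genes had. Psmb3 ranked 574 and Psmd9 660 among the 2681 genes bound in the optimal list, Psma4 ranked 1060, Psma7 1815 and Psmb10 2238. Their median signal was 204.1, beside 130.8 for all bound genes. In the mm9 list the median of the 6 was 233.1, beside 114.2 for all 3177 bound genes, and the ranks ran from 632 for Psmd9 to a place with 85.3% of bound genes stronger for Psmd2. In each replicate Psmb3 and Psmd9 lay above Psma4, and Psma4 lay above Psma7 and Psmb10. The order of Psmb3 and Psmd9 differed between the replicates, as did that of Psma7 and Psmb10. The median log2 ratio of replicate 2 to replicate 1 was 0.24 over the 5 genes (SD 0.41), beside 0.16 (SD 0.42) over 2373 optimal regions at gene starts. With 2 replicates and the scale of each list unknown, no test of one gene against another was made.

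**Figure D3:**
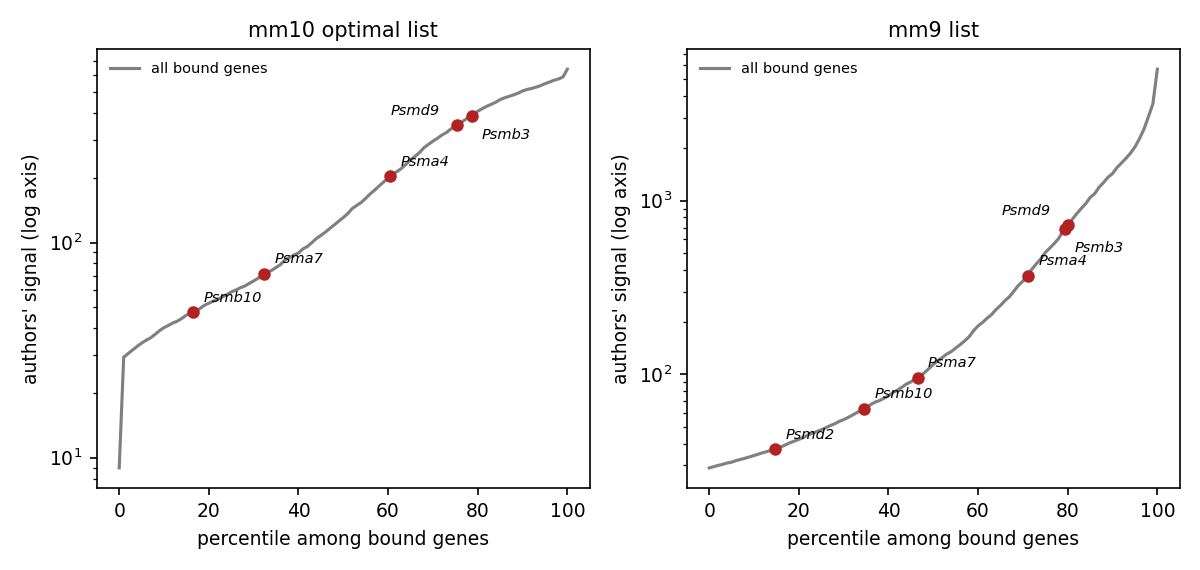
Authors' signal (vertical, log axis) against percentile among bound genes in the mm10 optimal list (left) and the mm9 list (right); the line is all bound genes and the points are proteasome genes. Fewer bound genes were stronger than Psmb3 (21.4% in mm10) and Psmd9 (19.9% in mm9) than were stronger than the other members, and Psmb10 in mm10 and Psmd2 in mm9 lie lowest.

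The relaxed lists, which hold regions down to background, gave a wider picture. A relaxed summit lay within 1 kb of a start for 16 of 39 proteasome genes in replicate 1 (41.0%, beside 25.7% of all genes) and for 24 of 39 in replicate 2 (61.5%, beside 36.7%). Both replicates had one at 13 genes (33.3%, beside 22.6%), and the relaxed list of both replicates together had one at 35 (89.7%, beside 58.5%). The conservative list, the stricter of the thresholded lists, held the same 5 genes as the optimal list, beside 11.9% of all genes. Of the 34 genes not bound in the optimal list, 8 (23.5%) had a relaxed region in both replicates, beside 11.6% of all genes not bound: Psmb1, Psmb6, Psmc1, Psmc3, Psmc5, Psmd2, Psmd3 and Psmd5. Another 3 had one in replicate 1 alone (8.82%, beside 3.56%) and 11 in replicate 2 alone (32.4%, beside 16.03%), and 12 had none in either (35.3%, beside 68.8%). Psma8, Psmb4, Psmb11 and Psmd10 lacked a region even in the list of both together (11.8%, beside 47.5%). Psmb11 belongs to the proteasome of cortical thymus cells, and Psmd10 is another chaperone of 19S assembly.

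These relaxed regions were weak. At the 11 unbound genes with one in replicate 1 the signal ran from 7.41 to 13.3 with a median of 8.13, beside 9.72 at all genes not bound. At the 19 in replicate 2 it ran from 6.58 to 20.7 with a median of 10.2, beside 9.45. The highest was Psmd11, a scaffold subunit of the 19S lid, with 20.7 at -50 bp in replicate 2 and no region in replicate 1. That is close to the 22.0 of Psmb10 in replicate 2, and a list of the 8108 strongest regions of replicate 2 held Psmd11 beside the 5 bound genes.

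**Figure D4:**
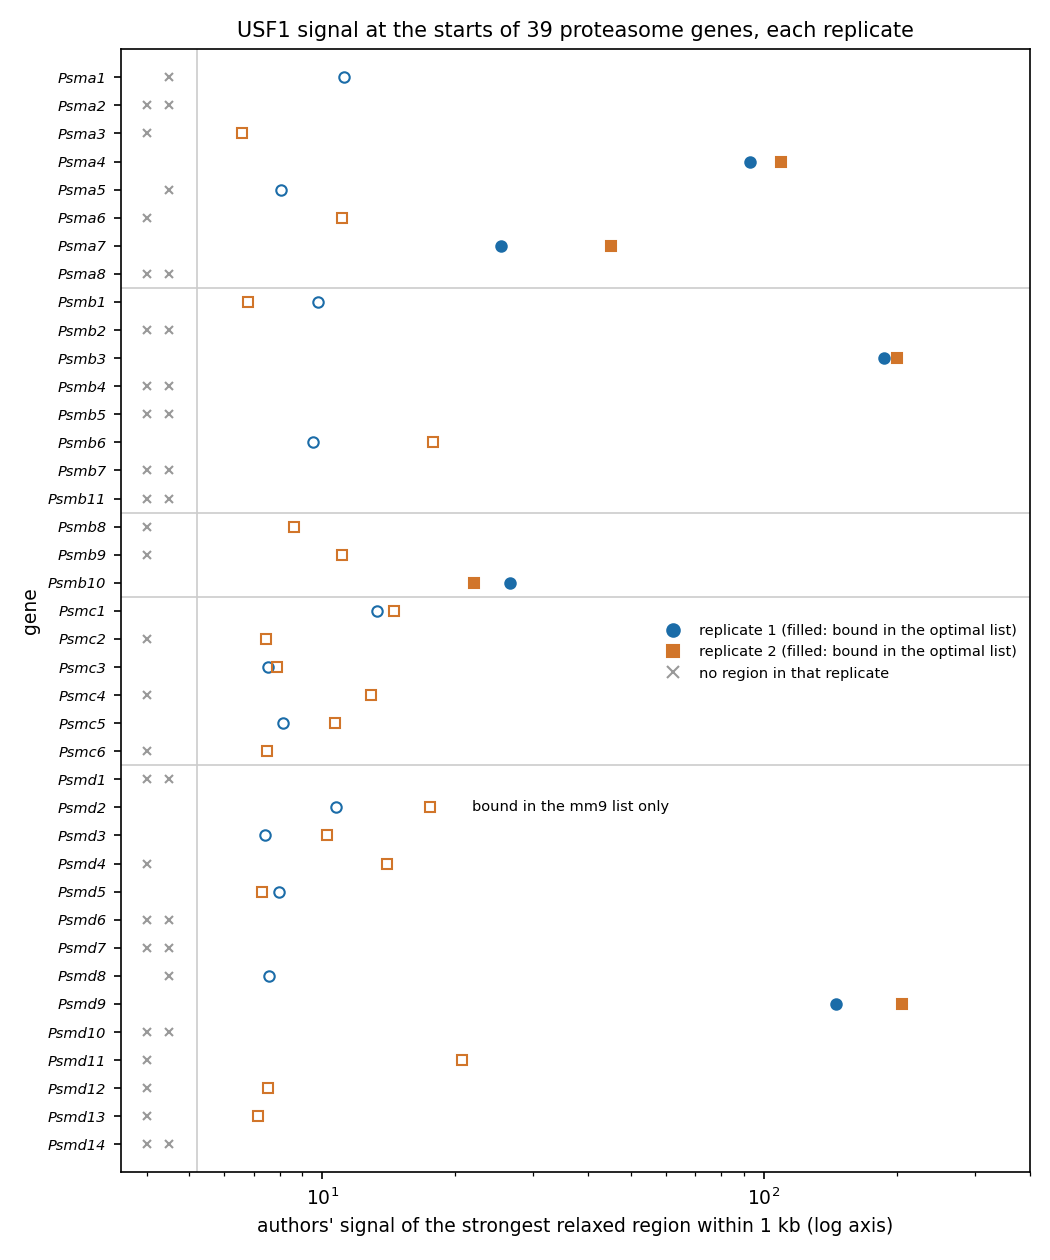
Signal of the strongest relaxed region within 1 kb of a start (horizontal, log axis) for each of the 39 genes in replicate 1 (circles) and replicate 2 (squares), filled where the gene is bound in the optimal list; grey crosses at the left mark no region. The lines separate alpha, beta, immunoproteasome, ATPase and other 19S genes, and all 5 bound genes lie above every unbound one in both replicates, Psmb10 by a small margin in replicate 2 (22.0 beside 20.7 at Psmd11). The optimal list was thresholded from the relaxed lists by rank, so higher signals at bound genes follow in part from how they were called.

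The proteasome genes have promoters rich in CpG dinucleotides, and regions in the relaxed lists were more frequent at such promoters. Over 500 bp on each side of the start, the ratio of observed to expected CpG had a median of 0.744 for the 39 genes, beside 0.555 for all genes and 0.748 for all genes bound in mm9. Between the quartiles of the proteasome genes, 0.643 to 0.826, lay 21 of them. Of those 21, 9 had a relaxed region in replicate 1 (42.9%), beside 41.0% of all 4710 genes in that range, and 13 in replicate 2 (61.9%), beside 57.1%. Both replicates had one at 8 (38.1%), beside 36.4%, and the list of both together at 20 (95.2%), beside 80.0%. In the optimal list 2 of the 21 were bound (9.52%), beside 19.7% of the genes in the range. In the mm9 list 3 of the 21, Psma4, Psmd2 and Psmd9, were bound (14.3%), beside 23.0% of 5462 such genes. The share of proteasome genes with a region in the replicates was near that of all genes in the range, while in the optimal and mm9 lists it was lower, on 2 and 3 genes. The range left out 3 of the bound genes: Psmb10, Psma7 and Psmb3, the last with a ratio of 0.627, just below the lower limit. Whether the lower shares hold with other limits was not tested. Psmb10 and Psma7 were at opposite ends of the bound genes, with ratios of 0.283 and 0.965.

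CACGTG near the start did not go with binding at every proteasome gene. From 250 bp before to 50 bp after the most upstream mm9 start, 6 of 39 held CACGTG on either strand (15.4%), beside 7.78% of all 22219 promoters and 10.7% of promoters in the CpG range. Of these 6, Psma4, Psmb3, Psmb10 and Psmd9 were bound in mm9 (66.7%), beside 54.7% of all genes with the motif there. Of the 33 without it, Psma7 and Psmd2 were bound (6.06%), beside 10.9% of all genes without it. Psma7 has its E-box at 759.5 bp, outside that window. Psma8 and Psmb2 held the motif and were not bound. At Psmb2, a beta-ring subunit, the E-box lay at -211.5 bp, in mm9 chr4:126354648-126354677 on the plus strand, shown with CACGTG in capitals because it is the unbound counterpart of the sites above.
Psmb2: ctgtagcacccaCACGTGctggtacttctt

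The flanks of the Psmb2 copy make ACACGTGC. Among all promoters whose copies of CACGTG were all of that form, 33 of 106 were bound in mm9 (31.1%), beside 54 of 134 (40.3%) for the ACACGTGG of Psmb3 and Psma7 and 99 of 184 (53.8%) for the CCACGTGG of Psmd9, Psma4 and Psmb10. The form of the copy at Psma8, the other unbound gene, was bound at 97 of 208 promoters (46.6%), beside 40.3% for the form at the bound Psmb3. The Psma7 copy lies at 759.5 bp, outside the 300-bp promoters in which these forms were counted. Whether the flanking bases bear on which proteasome genes were bound was not tested. The form most often bound, TCACGTGA (79.7% of 187), was the form at no summit of a bound proteasome gene. ACACGTGC made up 2.57% of the nearest copies at all 1748 summits with CACGTG, CCACGTGG 11.4% and ACACGTGG 6.69%. These shares describe which words were bound across the genome. Within 1 kb of any start, CACGTG was present at 17 of 39 proteasome genes (43.6%) and at 33.8% of all genes, and 5 of the 17 were bound (29.4%), beside 30.6% of all genes with it.

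The RefSeq promoter table of GRCm38.p6 held 32 of the 39 genes. Psma6 and Psmc2 have more than one promoter there, and CACGTG was present in 3 of the 34 promoters (8.82%), those of Psma4, Psmb10 and Psmd9, beside 7.15% of all 32851 promoters in the table. The Psmb3 copy lies upstream of that window.

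The count of promoters with other motifs varied between the classes of subunit. Each was searched on both strands of the same 300 bp in mm9. The ETS family motif CCGGAAG was in 10 of 20 promoters of 19S genes and 1 of 16 core promoters, and in 11 of all 39 (28.2%), beside 10.9% of all promoters and 18.7% of promoters in the CpG range. The 19S genes with it were Psmc1, Psmc2, Psmc3, Psmc6, Psmd2, Psmd4, Psmd6, Psmd7, Psmd11 and Psmd12. CCAAT, read by NF-Y, was in 10 of 16 core promoters, 7 of 20 of the 19S genes and none of the 3 of the immunoproteasome, and in 43.6% of all 39, beside 37.9% of all promoters and 39.4% in the CpG range. GGGCGG, read by SP and KLF factors, was in 16 of 20 promoters of 19S genes and 8 of 16 of the core. It was in 66.7% of all 39, beside 44.1% of all promoters and 69.9% in the CpG range. Its share was thus not above that of promoters in the CpG range, in which not all 39 genes lie.

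TGANNNNGC, the core of the antioxidant response element through which the NFE2L factors raise proteasome genes, was in 11 of 16 core promoters and 7 of 20 of the 19S genes, and in 48.7% of all 39, beside 40.9% of all promoters and 42.2% in the CpG range. TGACGT, part of the cAMP response element, whose letters can overlap the previous pattern, was in 6 promoters (15.4%, beside 8.59% of all and 12.5% in the CpG range), and the palindromic motif of nuclear respiratory factor NRF1 in 6 (15.4%, beside 8.20% and 13.3%). The doubled GAAA repeat of the interferon response element was in 5 (12.8%, beside 3.82% and 2.54%), none of them an immunoproteasome gene. CACATG was in 5 (12.8%, beside 12.0% and 6.37%), namely Psma2, Psmb4, Psmb10, Psmb11 and Psmc1. A match shows that the letters are there; it is not a measured site, and no difference between classes was tested.

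In mm9, 8 of the 39 proteasome genes (20.5%) have a gene start on the opposite strand within 1 kb, beside 11.3% of all genes. Of these 8, Psma4 and Psma7 were bound (25%), beside 26.4% of all 2512 such genes, and Psma2, Psmb9, Psmc2, Psmc5, Psmd10 and Psmd13 were not.

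The other genes of the pathway came from a list of 28 chosen by role. USF1 summits lay near the starts of 7 of them in the optimal list (25%, 95% Wilson interval 12.7 to 43.4%) and 10 in the mm9 list (35.7%, 20.7 to 54.2%), beside 12.6% and 14.3% of all genes. Psme3, the nuclear proteasome activator, had an optimal signal of 171.0 at -25 bp with 82.8 and 91.4 in the replicates, while the interferon-induced activators Psme1 and Psme2, Psme4 and the inhibitor Psmf1 were not bound. Of the assembly factors, Psmg4 had the highest optimal signal of the list, 306.0 at 874 bp with 158.4 and 147.4. Psmg1 had 62.8 at 0 bp with 28.5 and 33.6, while Psmg2, Psmg3 and Pomp were not bound. Starts of neighbouring genes were not examined for this list. Distant summits, such as those of Psmg4 and of Vcp at 782 bp, may therefore lie as near to another gene.

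Among proteins that handle ubiquitin at the 19S particle, the deubiquitinase Uchl5 had an optimal signal of 149.0 at -10 bp and its receptor Adrm1 had 52.0 at -456 bp, while Usp14 and Sem1 were not bound. Of the shuttle factors, Ubqln4 had 72.8 at -568 bp, and Rad23b, Ubqln1, Ubqln2 and Ddi2 were not bound. The unfoldase Vcp had 144.7 at 782 bp, and its partners Nploc4 and Ufd1 were not bound. Nfe2l1 and Nfe2l2, transcription factors of proteasome genes and of the oxidative stress response, and the ligase Ube3c were bound in the mm9 list alone, with signals of 52.2, 46.9 and 35.7. Of the 10 mm9 summits, 3 had CACGTG (Psme3, Psmg4 and Vcp), beside 56.7% of all summits near a start, 3 had CACATG (Adrm1, Ubqln4 and Nfe2l1) and 4 had neither. As a check of the labelled cell type, 4 of 8 B-cell marker genes were bound (Ms4a1, Blnk, Cd22 and Cd79b), 1 of 5 T-cell markers, and none of 3 hepatocyte and 3 neuron markers; binding of USF1 does not measure expression.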

How the data were processed

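Both replicates' deposited region lists were used. Per the readme files, the authors made relaxed mm10 lists (25978 regions in replicate 1, 44551 in replicate 2 and 300000 for both together), thresholded an optimal (8108 regions) and a conservative list (7356 regions) from them by IDR, which compares ranks between lists, and derived a list of 10624 peaks in mm9. No source used here names the caller, aligner or thresholds. The deposited signal (column 7) was compared only within a build; summits are start plus column 10, and coordinates are 1-based. mm10 starts were the RefSeq gene 5′ ends and every start of the RefSeq promoter table (GRCm38.p6), with strand from that table for 32 members and from the mm9 annotation for 7; 401 genes without strand were left out. mm9 starts were all protein-coding transcripts of Gencode vM1, and mm9 sequence came from NCBIM37. Calls and motif searches were tested on simulated data (Python 3.11.15). The members, classes and gene lists were chosen with earlier results of these data known, so no test was made and counts stand beside those of all genes. Any member could be named, and other genes came from the pathway and marker lists. Wilson intervals cover counting error only. Alternatives changed distance, list, starts, motif window and replicates.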

Additional observations from a re-analysis of the deposited data

How the results depend on the processing

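Of 65 alternatives, 61 left the result within its interval or spread. The intervals are wide for counts this small, and most alternatives recount the same genes, so this number does not measure robustness. For example, a limit of 5 kb took the immunoproteasome share in mm9 from 33.3% to 66.7%, beside 19.5% of all genes, and still counted as within. A limit of 500 bp in place of 1 kb lost Psma7 in both lists and moved the median signal to 277.8 in the optimal list and 370.6 in the mm9 list. The strongest 50% of optimal regions lost Psma7 and Psmb10, so the immunoproteasome share became 0.0%, beside 8.48% of all genes. The strongest 50% of mm9 peaks lost Psmd2, and the share of summits with CACGTG became 100% (5 of 5), beside 70.3% of all such summits. Leaving out a replicate kept all 5 genes; the share was 15.4% without replicate 1, which added Psmd11 (all genes 13.0%), and 12.8% without replicate 2 (12.6%). The promoter table's starts alone covered 32 of the 39 genes, the same 5 of them bound (15.6%, beside 12.6% of all). The conservative list, the single gene 5′ end (an alternative chosen after seeing the data) and every transcript type changed no member's call. No paired analysis was possible because there is 1 group. Depth is unknown, so a gene without a region may have been below detection.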

Other observations

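The Psmb10 site lies in DNA that recurs across the genome, a property that was looked at after the site's sequence had been seen. Of the 45 words of 16 bases in its 60-base window, 13 occur more than 100 times in mm9, and the most frequent occurs 2715 times. At the windows of the other 5 bound genes the most frequent word occurs between 3 and 10 times. Psmb10 also had the lowest optimal signal of the bound proteasome genes, 47.4, and a CpG ratio of 0.283, beside 0.627 or more at the other 5. Whether the repeated sequence bears on its signal was not tested.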
